A study of Mus musculus with 16 samples.

Results

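The 7 forkhead genes Foxf1, Foxf2, Foxa1, Foxa2, Foxa3, Foxl2 and Foxe1, best known outside the kidney, were followed across mouse kidneys that lacked Polycomb methyltransferases. The members were taken as every non-control probe whose RefSeq accession belongs to 1 of the 7 genes. This gave 7 probes, 1 per gene, of 56605 distinct probes on the array, and 7 genes of 22911 with a symbol. The genes were chosen by their measured values on these same arrays, namely the log2 ratios and detection by genotype, so differences of the members between genotypes are given as descriptions, with no test.

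The study measured total RNA of whole kidneys from C57BL/6 embryos at embryonic day 17.5 on 16 Agilent arrays with 2 dyes. The 4 genotypes had 4 arrays each. The double knockout had lost Ezh2 in Six2-positive nephron progenitors through a conditional allele and both germline alleles of Ezh1. The Ezh1-het group had the same Ezh2 deletion and 1 lost germline Ezh1 allele, the Ezh2-KO group had the Ezh2 deletion with wild-type Ezh1, and the control group was wild type. The Ezh2 deletion is thus limited to one progenitor population and its descendants, whereas Ezh1 was lost in every cell of the kidney. On every array the red dye, Cy5, marked the sample and the green dye, Cy3, the RNA of control 1, without dye swaps, so each value is the log2 ratio of a sample to the same control RNA. The array of control 1 set that RNA against itself.

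Ezh2 and Ezh1 are alternative catalytic subunits of Polycomb repressive complex PRC2, which methylates histone H3 at lysine residues of silent developmental genes. Forkhead (FOX) proteins are transcription factors that bind DNA through a winged-helix domain, and many of their genes are classical Polycomb targets in tissues that do not use them. Foxf1 and Foxf2 act in the mesenchyme around gut and lung, downstream of Hedgehog signals. Foxa1, Foxa2 and Foxa3 open chromatin in endoderm and liver, Foxl2 maintains the granulosa cells of the ovary, and Foxe1 is needed for thyroid and palate.

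The targeted genes were checked first. Ezh1 was at -4.55 ± 0.08 in the double knockout, -1.13 ± 0.20 in Ezh1-het, 0.05 ± 0.33 in Ezh2-KO and -0.08 ± 0.26 in control kidneys (log2 ratio, SD, n = 4 each). One Ezh2 probe was at -3.09 ± 0.28, -3.43 ± 0.31 and -3.32 ± 0.34 in double knockout, Ezh1-het and Ezh2-KO kidneys and at 0.09 ± 0.43 in controls. The other 4 of the 5 Ezh2 probes showed little loss, with means of -0.45 to -0.11 over these 3 groups and 0.05 to 0.29 in controls, and the brightest differed by -0.22 (SE 0.13) between double knockout and control. Which probes lie in the deleted part was not determined here. The sample dye was well above background for 53.1% to 63.4% of probes on each array, with the lowest share on control 2. The arrays lay on 2 slides, with replicates 1 and 2 of every group on the first and replicates 3 and 4 on the second. The labels number kidney pairs in the control group and samples in the other groups. They do not say how these were collected, so the spread between arrays may be partly technical.

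The name under which the genes were grouped, factors of non-renal tissues, held for most of them in control kidneys. Foxf1, Foxf2, Foxa1 and Foxe1 were well above background in Cy5 on 0 of 4 control arrays, Foxa2 on 1 and Foxa3 on 2. The signal of the Foxl2 probe went against it, being well above background on all 16 arrays in both dyes. Whether this single probe reads Foxl2 RNA alone was not tested. In the Cy3 channel, which held the same control RNA every time, Foxf1 was well above background on 2 of 16 arrays, Foxa2, Foxa3 and Foxe1 on 1 each, and Foxf2 and Foxa1 on 0.

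Foxf1, which directs splanchnic mesoderm and the vessels of lung and gut, stood highest above its controls. Its log2 ratio was 1.72, 1.49, 1.83 and 1.67 on the 4 double knockout arrays. It was 0.16, 0.39, 0.33 and 0.26 in Ezh1-het and 0.06, -0.02, 0.14 and 0.17 in Ezh2-KO kidneys, against -0.14, -0.12, 0.06 and 0.10 in controls. The double knockout values lay apart from all 12 others, the Ezh1-het values lay above every control, and the ranges of Ezh1-het and Ezh2-KO met at 0.16 and 0.17. Ezh2-KO and control overlapped.

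The net Cy5 intensity of the Foxf1 spot, its median signal minus background, was 375, 367.5, 509.5 and 442 in double knockout kidneys. It ran from 53.5 to 85.5 in Ezh1-het, from 26 to 129.5 in Ezh2-KO and from 7 to 28 in control kidneys. The probe was well above background on 4, 4, 2 and 0 arrays of double knockout, Ezh1-het, Ezh2-KO and control. On Ezh2-KO replicate 2, which gave the 129.5, the spot was also well above background in Cy3, and its ratio was -0.02. The double knockout exceeded control by 1.70 (SE 0.08), at least 3.26-fold, and Ezh2-KO by 1.59 (SE 0.08). Here and below, "at least" marks a fold against a group in which no array was well above background, and refers to that limit and not to sampling error. Ezh1-het exceeded control by 0.31 (SE 0.08), at least 1.24-fold, and Ezh2-KO exceeded control by 0.11 (SE 0.08). Both slides showed the double knockout difference, with 1.74 on slide 1 and 1.67 on slide 2.

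Foxf2, its paralogue in gut and palate mesenchyme, had a dim probe that reached the detection limit only in the double knockout. Its ratios were 0.52, 0.46, 0.75 and 0.49 in double knockout and 0.09, 0.21, -0.03 and 0.17 in Ezh1-het kidneys. They were -0.09, 0.14, -0.12 and 0.20 in Ezh2-KO kidneys and -0.07, -0.16, 0.19 and 0.19 in controls. Every double knockout array lay above all 12 others, and the other 3 groups overlapped. Its net Cy5 intensity was 51.5, 55, 93 and 44.5 in double knockout kidneys and between -8 and 7 in controls, and 3 double knockout arrays were well above background against 0 of 4 controls. The difference from control was 0.51 (SE 0.10), at least 1.43-fold. Because 3 arrays fell short of the 4 that the filter asked for, Foxf2 was not among the 15646 genes tested. Foxa1 passed the same filter through its 4 double knockout arrays alone, which fixed that it would differ there. Foxf1, Foxa2, Foxa3 and Foxl2 passed it too, and Foxe1 did not.

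Foxa1, an opener of closed chromatin in endoderm, prostate and breast, was at 1.24, 0.76, 1.31 and 0.72 in double knockout and at 0.18, -0.10, 0.29 and 0.21 in Ezh1-het kidneys. It was at -0.08, -0.07, 0.19 and 0.11 in Ezh2-KO kidneys and at -0.09, -0.07, 0.03 and -0.12 in controls. The double knockout arrays lay above all others and fell into a higher pair, replicates 1 and 3, and a lower pair, replicates 2 and 4, of which each slide held 1. The probe was well above background on all 4 double knockout arrays and on no other, with net intensities of 168, 102, 287 and 120 against -6 to 0.5 in controls. Double knockout exceeded control by 1.07 (SE 0.14), at least 2.11-fold, and Ezh2-KO by 0.97 (SE 0.14), at least 1.96-fold. The Ezh1-het difference from control was 0.21 (SE 0.14), and 1 Ezh1-het array lay among the controls.

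Foxa2, which patterns node, notochord, floor plate and endoderm, was at 1.67, 0.87, 1.31 and 1.00 in double knockout and at 0.20, 0.43, 0.48 and 0.61 in Ezh1-het kidneys. It was at -0.06, 0.02, 0.25 and 0.05 in Ezh2-KO and at -0.02, -0.22, -0.13 and -0.05 in control kidneys. The double knockout lay above every other array and Ezh1-het above every control, while 1 Ezh1-het array overlapped the Ezh2-KO range. Net intensities were 255, 156, 324.5 and 146 in double knockout, 41 to 63.5 in Ezh1-het, 4.5 to 21 in Ezh2-KO and -1 to 30 in control kidneys. The probe was well above background on 4, 3, 0 and 1 arrays of these groups. The control array, replicate 3, was also well above background in Cy3. Double knockout exceeded control by 1.32 (SE 0.15) and Ezh2-KO by 1.15 (SE 0.15), the second at least 2.22-fold, and Ezh1-het exceeded control by 0.54 (SE 0.15).

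Foxa3, the FOXA gene expressed mostly in liver and gut, stood apart from Foxa1 and Foxa2. Its ratios were 0.47, 0.09, 0.13 and 0.06 in double knockout, against 0.39, 0.36, 0.31 and 0.13 in control kidneys. The groups overlapped, the difference was -0.11 (SE 0.10), and 2 arrays of each group were well above background. Of these, double knockout 4 was also well above background in Cy3. Control 1 was another, in Cy5 alone. That array set the same RNA against itself, so its ratio of 0.39 is no difference between RNAs. The ranges in Ezh1-het (0.08 to 0.30) and Ezh2-KO (-0.09 to 0.26) also overlapped the controls.

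Foxl2 was the only bright member, with net Cy5 intensities of 10177, 14094, 13862 and 12677 in double knockout and 12120, 8921, 13403.5 and 13381 in control kidneys. Its ratios were -0.03, 0.51, -0.0017 and -0.05 in double knockout, against 0.05, 0.84, 0.0017 and 0.39 in control kidneys. Replicate 2 was the highest array of both groups, and the difference was -0.21 (SE 0.18). Ezh2-KO kidneys, at -0.33, -0.03, -0.003 and -0.21, lay below every control, as 3.31% of tested genes did, with a difference of -0.46 (SE 0.18), and Ezh1-het (-0.09 to 0.10) overlapped the controls. With median centring of each array in place of loess, which put the median of all genes at 0.38 to 0.44 in the 3 comparisons with control, against 0.0063 to 0.0603 with loess, these Foxl2 differences had the opposite sign, at 0.41 in double knockout, 0.30 in Ezh1-het and 0.10 in Ezh2-KO.

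Foxe1 was well above background on 1 double knockout array alone, and its ratios of -0.10, 0.09, 0.22 and -0.02 in double knockout overlapped those of 0.20, 0.06, 0.28 and 0.06 in controls. The difference was -0.10 (SE 0.08). On the double knockout array that was well above background, replicate 2, the spot was so in Cy3 as well. Ezh1-het arrays, at -0.001, -0.18, 0.01 and -0.03, lay below every control, as 5.23% of tested genes did, although 0 arrays of either group were well above background.

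**Figure D1:**
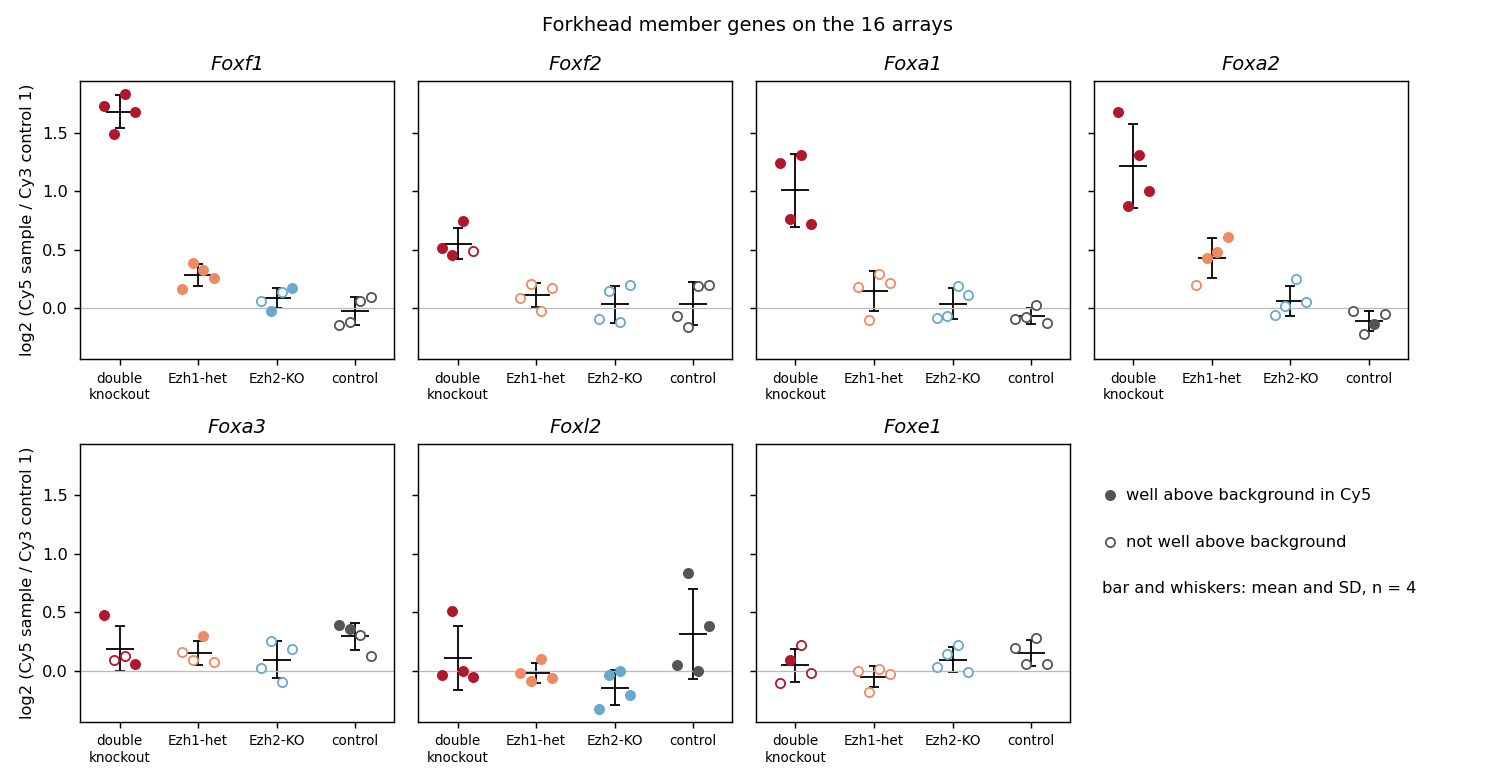
Log2 ratio of sample (Cy5) to control 1 RNA (Cy3) of the 7 forkhead members on the 16 arrays, by genotype, with group mean and SD (n = 4); filled points were well above background in Cy5. Foxf1, Foxf2, Foxa1 and Foxa2 lie above all other groups in the double knockout, whereas Foxa3, Foxl2 and Foxe1 overlap the controls there.

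Foxf1, Foxf2, Foxa1 and Foxa2, 4 of 7 members, had every double knockout array above every control array, where 6.35% of the 15646 genes tested did. They also had every double knockout array above every Ezh2-KO array, where 3.09% of genes did. In Ezh1-het, Foxf1 and Foxa2 had every array above every control (12.6% of genes). The Ezh1-het differences were 0.27 to 0.35 for Foxf1 and 0.48 to 0.61 for Foxa2 with any 1 array left out. Across all 29 alternative settings they stayed positive, from 0.21 to 1.84 for Foxf1 and from 0.38 to 2.75 for Foxa2. With median centring they were 0.23 and 0.38, below the median of 0.44 for all genes. A positive sign there thus does not place them above other genes. Foxf1 and Foxa1 belonged to 109 probes, 0.193% of all 56605, that were well above background on all 4 double knockout arrays and on 0 control arrays. Since these contrasts chose the genes, nothing is read from the counts.

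The size of the differences depended on how dim signals were treated. An offset of 50 added after background correction draws ratios of dim spots toward 0. With an offset of 16, double knockout minus control was 2.37 for Foxf1, 2.09 for Foxa2, 1.77 for Foxa1 and 0.99 for Foxf2. With the scanner software's own processed signals the same differences were 4.63, 4.52, 4.17 and 2.46. Over all 29 alternative settings the differences of these 4 genes stayed positive in this comparison, from 1.65 to 4.63 for Foxf1, 1.17 to 4.52 for Foxa2, 0.97 to 4.17 for Foxa1 and 0.42 to 2.46 for Foxf2. The numerical fold of a gene whose control spots sit at background is therefore not fixed by these arrays. Foxa3 and Foxe1 stayed negative in all but the Cy5-only setting, where they were 0.09 and 0.12.

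**Figure D2:**
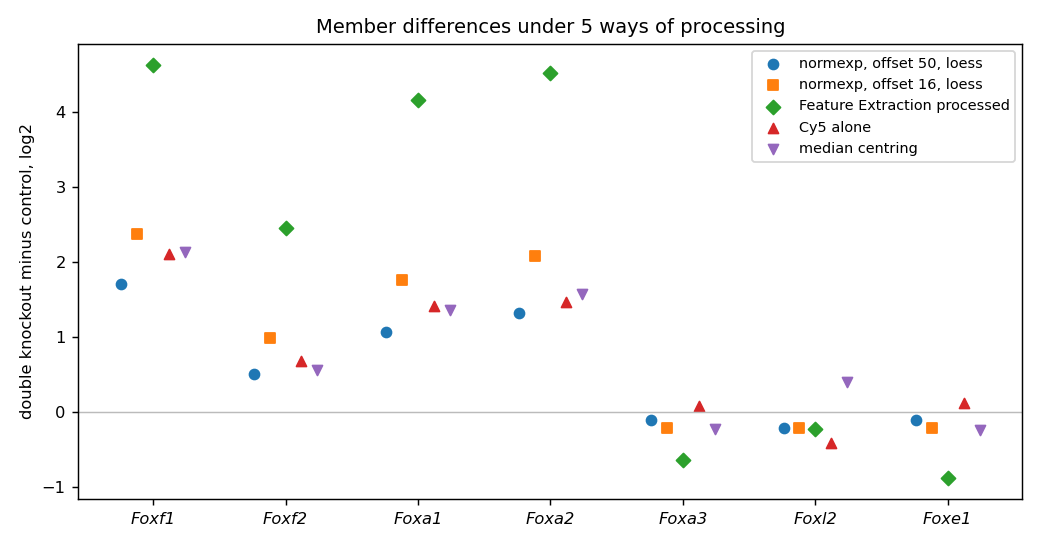
Difference in log2 ratio between double knockout and control of each member under 5 ways of processing the same arrays. Foxf1, Foxf2, Foxa1 and Foxa2 are positive in each, with Foxf1 between 1.70 and 4.63, and Foxl2 changes sign with median centring.

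Among the 4 members that were high in the double knockout, Pearson's r over 16 arrays was 0.94 between Foxf1 and Foxa1, 0.93 between Foxf1 and Foxa2, 0.94 between Foxa1 and Foxa2, 0.89 between Foxf1 and Foxf2, 0.83 between Foxf2 and Foxa1 and 0.81 between Foxf2 and Foxa2. Over the 12 arrays other than the double knockout it was 0.83 for Foxf1 and Foxa2, 0.52 for Foxf1 and Foxa1, 0.65 for Foxa1 and Foxa2, 0.45 for Foxf1 and Foxf2, 0.23 for Foxf2 and Foxa2 and -0.04 for Foxf2 and Foxa1. All 6 pairs were thus lower without the double knockout step, and Foxf2, the dimmest of the 4, was the lowest with each partner. The 12 arrays still differed in genotype, and Foxf1 and Foxa2 also lay above every control in Ezh1-het. All points share the Cy3 RNA and the low signal of dim spots. Foxa3, Foxl2 and Foxe1 had r between -0.29 and 0.07 with the 4 genes over 16 arrays. Over the 12 arrays without the double knockout every such r was negative, from -0.65 (Foxf1 and Foxe1) to -0.04 (Foxa1 and Foxe1).

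Upstream sequence was available for Foxa1, Foxa2, Foxa3, Foxf2 and Foxl2 (RefSeq, GRCm38.p6), 5 of the 7 members. Silent CpG-rich start regions are where PRC2 is usually found, so the CpG content of the 250 bases before each start site was counted. It was 21 CpG for Foxa1, 21 for Foxf2, 22 for Foxl2, 18 for Foxa3 and 6, 20 and 13 for the 3 start sites of Foxa2, against a median of 6 over 32851 windows of the same length. In the whole set 31.0% of windows were CpG-rich (observed over expected CpG of at least 0.6 and at least 50% G and C). Foxa1 (0.887 observed over expected), Foxf2 (0.724), Foxl2 (0.704), Foxa3 (0.61) and 2 of the 3 Foxa2 sites (0.732 and 0.73) met that definition, and the other Foxa2 site (0.376) did not. Members that were high in the double knockout and members that were not were thus both CpG-rich. The 3 windows below belong to members high in the double knockout and are shown because of this shared CpG content, with every CG in capitals, 5′ to 3′ on the gene's strand. They are chr12:57546112-57546361 (minus strand) for Foxa1, chr2:148045949-148046198 (minus strand) for the second start site of Foxa2 and chr13:31625566-31625815 (plus strand) for Foxf2.
Foxa1: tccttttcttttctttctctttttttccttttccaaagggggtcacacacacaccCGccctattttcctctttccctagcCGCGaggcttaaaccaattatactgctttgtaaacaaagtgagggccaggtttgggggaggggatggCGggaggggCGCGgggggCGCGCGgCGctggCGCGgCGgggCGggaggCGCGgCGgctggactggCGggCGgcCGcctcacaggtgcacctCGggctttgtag
Foxa2: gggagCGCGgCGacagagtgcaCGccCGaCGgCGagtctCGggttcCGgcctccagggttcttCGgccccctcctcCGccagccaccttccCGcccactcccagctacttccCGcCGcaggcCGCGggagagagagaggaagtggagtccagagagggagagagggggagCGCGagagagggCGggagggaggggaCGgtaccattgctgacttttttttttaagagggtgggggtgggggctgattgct
Foxf2: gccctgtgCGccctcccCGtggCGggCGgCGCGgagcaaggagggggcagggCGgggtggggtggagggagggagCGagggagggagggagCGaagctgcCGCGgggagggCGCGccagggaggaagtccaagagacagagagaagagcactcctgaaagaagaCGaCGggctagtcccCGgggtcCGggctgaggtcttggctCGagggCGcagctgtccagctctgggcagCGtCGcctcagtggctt

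The forkhead core TGTTTAC, searched on both strands (reverse GTAAACA), was found in 3.17% of all windows and in 1 member window. It begins 141 bases before the Foxa1 start site. The stretch around it, chr12:57546235-57546264 (minus strand), is shown with the core in capitals because Foxa1 is itself a forkhead factor.
Foxa1 core: ttatactgctttGTAAACAaagtgagggcc
A match is a string of letters and was not tested for binding.

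The genes next to the members were examined for whether the differences extended to neighbours. The RefSeq table listed 42 genes as the 3 nearest on either side, of which 25 were on the array and 18 were tested. These and the lists that follow were read from limma with Benjamini-Hochberg adjustment over all 15646 genes and a threshold of 0.05, which 4.62% of genes passed in double knockout, 7.81% in Ezh1-het and 3.08% in Ezh2-KO against control, and 0.914% in double knockout against Ezh2-KO. Of the neighbours, 2 of 18 rose and 0 fell in double knockout against control, against 3.71% and 0.914% of all genes, and the other 16 ranged from -2.18 to 0.28. The median was 0.05, against 0.0063 for all genes. Without control 3 the count was 4. Both genes that rose, Fendrr and Foxl2os, were long non-coding RNAs. Their double knockout arrays alone were enough to pass the filter, so this count is no independent support for a difference there.

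Fendrr, the non-coding RNA transcribed away from the Foxf1 start site and needed in lateral mesoderm, was at 0.93, 0.73, 0.67 and 0.85 in double knockout kidneys. It was at 0.17, 0.15, 0.04 and 0.09 in Ezh1-het and at 0.03, -0.11, 0.04 and 0.01 in Ezh2-KO kidneys, against -0.08, -0.04, -0.12 and -0.11 in controls. Double knockout arrays lay apart from all others, and 4 of 4 were well above background, against 0 of 4 controls. Against controls Fendrr was at least 1.85-fold higher (0.88, SE 0.07, limma adjusted p = 1.13e-06) and against Ezh2-KO kidneys at least 1.74-fold higher (0.80, SE 0.07, limma adjusted p = 7.65e-06). The call against control held in all 29 alternatives. Fendrr was well above background on 5 of the 16 arrays and met the filter through its 4 double knockout arrays. A difference there was thus favoured beforehand, and the test is no independent support for it. The Ezh1-het difference of 0.20 (SE 0.07) had a limma adjusted p of 0.0847.

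On the other side of Foxf1, 3 tested genes did not pass the test in double knockout against control. Mthfsd differed by 0.06 (SE 0.17), and the forkhead genes Foxc2, of vessels and kidney, and Foxl1, of gut mesenchyme, by 0.08 (SE 0.09) and 0.11 (SE 0.12), with limma adjusted p of 0.91, 0.709 and 0.682. All 3 were well above background in each group. Beside Foxf2, the forkhead genes Foxq1 and Foxc1 differed by -0.34 (SE 0.11, limma adjusted p = 0.0805) and -0.18 (SE 0.10, limma adjusted p = 0.378). No tested gene adjoined Foxa1 or Foxa2.

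Foxl2os, a non-coding RNA read from the strand opposite Foxl2, was at 0.65, 0.13, 0.55 and 0.74 in double knockout, against -0.10, 0.0013, 0.06 and -0.04 in control kidneys. Every double knockout array was higher, although replicate 2 by little. Foxl2os was at least 1.45-fold higher (0.54, SE 0.10, limma adjusted p = 0.0047), was well above background on 4 double knockout arrays and 0 controls, and differed by 0.07 in Ezh1-het. Its 4 double knockout arrays alone were enough to pass the filter. A difference there was thus favoured beforehand, and the test is no independent support for it. Against Ezh2-KO the difference was 0.50 (SE 0.10, limma adjusted p = 0.0295), a call lost without any 1 of 6 arrays (0.42 to 0.50). The bright Foxl2 probe beside it differed by -0.21. Probe strands and positions were not used here, so a gene and an RNA antisense to it were told apart only by accession.

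Beside Foxa3, Nanos2, an RNA-binding factor of male germ cells, fell in Ezh1-het against control (-2.91, SE 0.81, at least 4.61-fold lower, limma adjusted p = 0.0405). It was at -2.78, -1.71, -2.91 and -3.09 in double knockout and -3.83, -3.75, -2.84 and -2.98 in Ezh1-het kidneys, against 0.03, 2.77, -2.85 and -1.71 in controls, so the groups overlapped. The Nanos2 call was lost without control 2 (-1.84) or any of 9 other single arrays. The other tested neighbours did not pass in double knockout against control. They were Faim (0.28), Gm1123 (0.04) and Pik3cb (limma adjusted p = 0.748) beside Foxl2, Irf2bp1 (0.11), Sympk (0.10), Mypop (0.05) and Dmwd (0.03) beside Foxa3, and Trmo (-0.0068), Hemgn (-0.16) and Anp32b (-0.02) beside Foxe1. In Ezh2-KO, 0 of 18 neighbours passed with limma and 3 had an unadjusted p under 0.05.

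**Figure D3:**
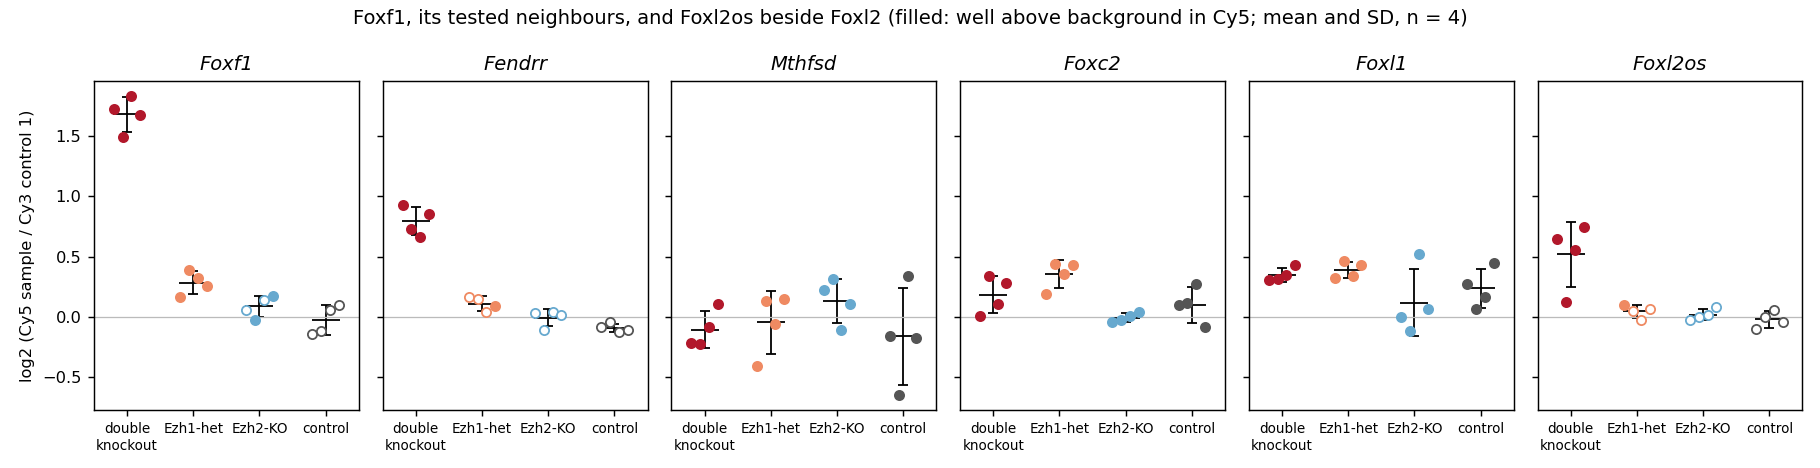
Log2 ratio on each array of Foxf1, its tested neighbours Fendrr, Mthfsd, Foxc2 and Foxl1, and of Foxl2os, by genotype, with mean and SD (n = 4); filled points were well above background in Cy5. Fendrr and Foxl2os lie above every control in the double knockout, while Mthfsd, Foxc2 and Foxl1 overlap the controls.

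Of 36 other forkhead genes taken as a list, 28 were tested. In double knockout against control 2 rose (Foxd1 and Foxo6) and 0 fell, against 3.71% and 0.914% of all genes, and 5 of 28 had an unadjusted p under 0.05, where 17.1% of genes did. The count of 2 was 0 without control 2, control 4, double knockout 3, double knockout 4 or controls 2 and 3 together, and 1 without any 1 of 8 other arrays. The other 26 ranged from -0.51 (Foxd2) to 0.27 (Foxk1). The median was 0.02, against 0.0063 for all genes. With double knockout set against Ezh2-KO, 0 of 28 passed with limma and 4 had an unadjusted p under 0.05.

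Foxd1, the marker of kidney stroma, rose by 0.72 (SE 0.20, limma adjusted p = 0.045) in the double knockout, with ranges that overlapped the controls. Its call was lost without any 1 of 12 single arrays (0.51 to 0.76). Foxo6, a FOXO gene of the brain, rose by 0.55 (SE 0.13, limma adjusted p = 0.0237), and lost the call without control 2, control 4 or double knockout 3 or 4 (0.45 to 0.51). Processed signals and Cy5 alone each ended both calls. In Ezh1-het, Foxd2, of kidney mesenchyme, fell by 0.71 (SE 0.17, limma adjusted p = 0.0203) and Foxo3, a factor restrained by insulin signals, fell by 0.42 (SE 0.11, limma adjusted p = 0.025). Foxd2 lost its call without control 3 (-0.57), Ezh1-het 1 (-0.64) or Ezh1-het 4 (-0.71), and Foxo3 without control 2 or 3 or Ezh1-het 2 or 4 (-0.41 to -0.36). Both calls were also lost with median centring, where the differences were -0.08 for Foxd2 and -0.13 for Foxo3, and with Cy5 alone (-0.58 and -0.47). With median centring the median of all genes in Ezh1-het was 0.44. In Ezh1-het 1.9% of all genes fell and in Ezh2-KO 2.4% rose and 0.677% fell. In Ezh2-KO, Foxm1, a driver of the cell cycle, rose by 0.71 (SE 0.17, limma adjusted p = 0.0343). The Foxm1 call was lost without control 2 or 4 or Ezh2-KO 1, 2 or 3 (0.59 to 0.71) and when its probes were averaged.

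**Figure D4:**
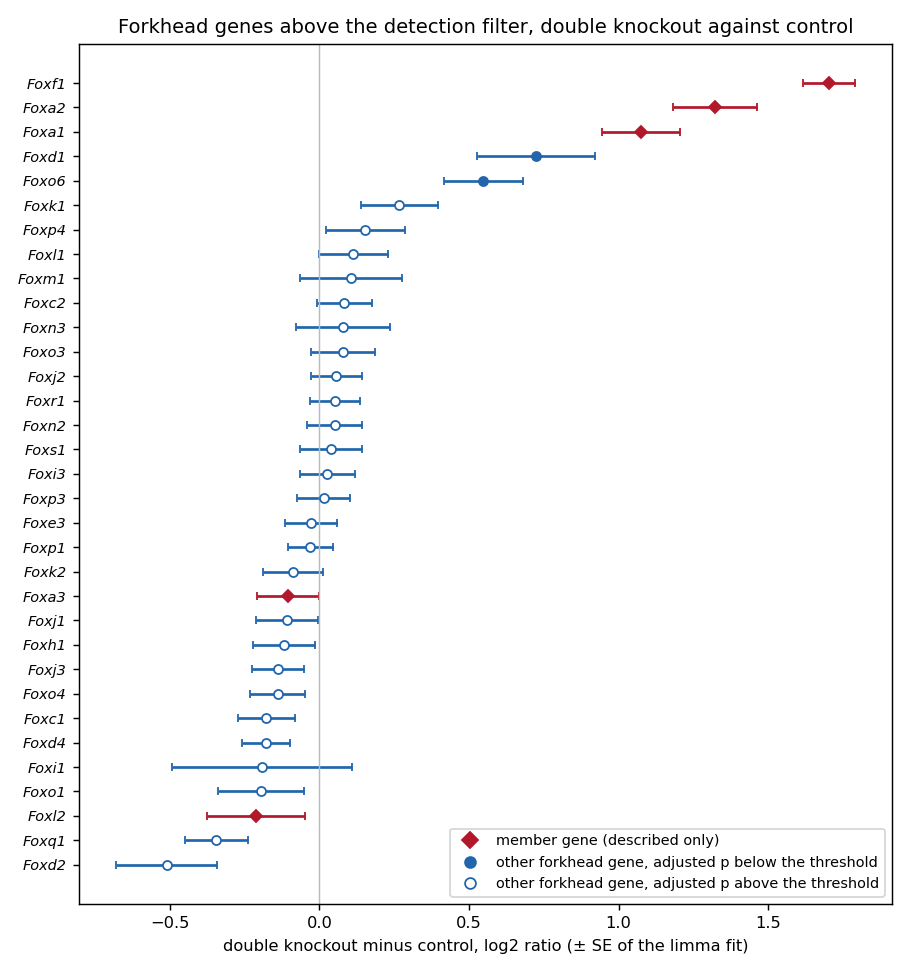
Difference in log2 ratio (± SE of the limma fit) between double knockout and control for 33 tested forkhead genes, ordered by size; red diamonds are members, which are described only, and open blue points did not pass the limma threshold. Foxf1, Foxa2 and Foxa1 lie above 1, and the 26 open points lie between -0.51 and 0.27.

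Genes of the pathway in which FOXF factors act were taken as a list of 26 Hedgehog and visceral mesoderm genes, 17 of them tested. In double knockout against control 5 rose and 0 fell (limma, 3.71% of all genes rose), with a median of 0.38 against 0.0063 for all genes. Tbx3, a T-box factor of mesenchyme, rose by 1.35 (SE 0.26, limma adjusted p = 0.00499). Gli1, the transcriptional effector and target of Hedgehog signals, rose by 1.28 (SE 0.19, limma adjusted p = 0.000586). The others were Fendrr, given above, the effector Gli2 (0.46, SE 0.12) and Hhip, which binds Hedgehog ligands (0.38, SE 0.09). The receptor Ptch1 (0.38, SE 0.13) and the signal transducer Smo (-0.11, SE 0.08) did not pass.

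Gli1 and Fendrr kept their double knockout calls without any single array, and Tbx3 lost its call without controls 2 and 3 together (0.91). Hhip lost it without control 1 or double knockout 1 or 3 (0.31 to 0.38) and Gli2 without any 1 of 5 arrays (0.36 to 0.45). Without controls 2 and 3 together 3 of 17 rose, as without control 1 or without double knockout 3. In Ezh1-het against control 3 rose and 0 fell (5.91% of all genes rose), namely Ihh (1.25, SE 0.34), a ligand, Gli1 (0.83, SE 0.19) and Wnt5a (0.69, SE 0.18). That count was 0 without Ezh1-het 2, Ezh1-het 4 or controls 2 and 3 together, and 1 without control 3 or Ezh1-het 1. In Ezh2-KO against control 1 rose and 0 fell, Gli1 (0.73, SE 0.19, limma adjusted p = 0.0472), a call lost without any 1 of 13 arrays (0.54 to 0.79). Double knockout against Ezh2-KO had 2 higher (0.639% of all genes), Fendrr and Hhip (0.40, SE 0.09), of which Hhip lost its call without any 1 of 12 arrays (0.33 to 0.42).

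**Figure D5:**
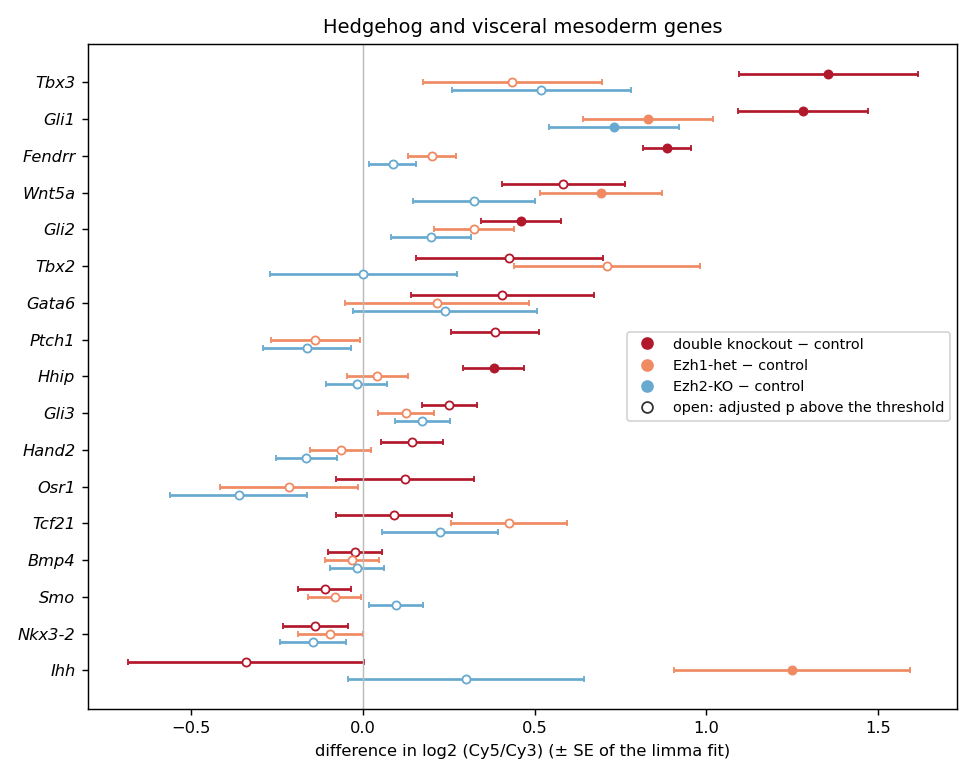
Difference in log2 ratio from control (± SE of the limma fit) of the 17 tested Hedgehog and visceral mesoderm genes in double knockout, Ezh1-het and Ezh2-KO kidneys; open points did not pass the limma threshold. Tbx3, Gli1 and Fendrr have the largest double knockout differences plotted, between 0.88 and 1.35.

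Of 27 endoderm and liver genes chosen for the FOXA factors, 20 were tested. In double knockout against control 3 rose and 0 fell, and the median was -0.0041. Onecut2, a factor of liver and pancreas, rose by 1.34 (SE 0.12, limma adjusted p = 4.52e-06) and held its call in all 29 alternatives. Hhex, of liver and thyroid, was at least 1.37-fold higher (0.46, SE 0.10, limma adjusted p = 0.0105), and Nkx2-1, of lung and thyroid, rose by 0.41 (SE 0.09, limma adjusted p = 0.00997). No control array was well above background for Hhex, so mutant arrays alone carried it past the filter. A difference from control was thus favoured beforehand, and the Hhex test is no independent support for it. Ttr, a secreted carrier made in liver, differed by 1.54 (SE 0.45, limma adjusted p = 0.068). In Ezh1-het 4 rose and 0 fell, with a median of 0.36 against 0.0515 for all genes. They were Ttr (2.75, SE 0.45), the gluconeogenic enzyme Pck1, which kidney tubules also make (1.80, SE 0.52), Onecut2 (0.59, SE 0.12) and Hhex (0.36, SE 0.10, at least 1.29-fold). Pck1 lost its call without any 1 of 11 arrays (1.37 to 1.94) and Hhex without any 1 of 7 (0.33 to 0.38), and the count was 2 without any 1 of 6 arrays and 1 without controls 2 and 3. In Ezh2-KO 0 of 20 passed with limma and 2 had an unadjusted p under 0.05. Against Ezh2-KO the double knockout was higher in Onecut2 (1.26, SE 0.12) and Nkx2-1 (0.45, SE 0.09), the second lost without any 1 of 5 arrays (0.41 to 0.45).

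Of 18 ovary and gonad genes chosen for Foxl2, 13 were tested and Foxl2os was the only one to rise in double knockout against control, with 0 lower and 3 at an unadjusted p under 0.05. The filter limit given above for Foxl2os holds here too. Without control 2 or control 4 the count was 2. In Ezh1-het and in Ezh2-KO 0 passed with limma, with 4 and 3 at an unadjusted p under 0.05 (25.4% and 21.3% of genes). Of 14 thyroid and palate genes chosen for Foxe1, 8 were tested, and 5 rose and 0 fell in double knockout against control, with a median of 0.43. These were Pax8, of thyroid and kidney (0.62, SE 0.11, limma adjusted p = 0.0025), Msx1, of palate and tooth (0.53, SE 0.12, limma adjusted p = 0.0193), Pax9, also of palate and tooth (0.48, SE 0.09, at least 1.39-fold, limma adjusted p = 0.00267), and Hhex and Nkx2-1 from the list above. For Pax9 and Hhex no control array was well above background, so mutant arrays alone carried both past the filter. Counts that include them are thus no independent support for a difference from control. Msx1 lost its call without control 1 (0.50) or double knockout 3 (0.41). The Foxe1 probe itself differed by -0.10. In Ezh1-het 3 rose, Pax9 (0.64, SE 0.09, at least 1.56-fold), Pax8 (0.38, SE 0.11) and Hhex, and the count was 1 without any 1 of 7 arrays or without controls 2 and 3. In Ezh2-KO 0 of 8 passed with limma and 2 had an unadjusted p under 0.05.

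Markers of tissues that could have been dissected with the kidney were read beside these results. In whole-kidney RNA more cells of a type and more RNA per cell cannot be told apart. Of 10 ureter smooth muscle and mesenchyme markers 7 were tested and 0 passed with limma in double knockout against control, with 0 at an unadjusted p under 0.05. Their summed Cy5 level was 5700 to 6960 in double knockout and 5314 to 6903 in control kidneys, and Myocd and Lmod1 were not well above background in either. Tbx18 was well above background on some double knockout array and on no control array. Of 10 urothelium markers 7 were tested and 2 rose, Upk1a (1.04, SE 0.23, limma adjusted p = 0.0128) and Grhl3 (0.61, SE 0.16, limma adjusted p = 0.0437), with summed levels of 4621 to 6520 in double knockout and 4904 to 8187 in control kidneys. Upk1a lost its call without double knockout 3 (0.91) and Grhl3 without any 1 of 10 arrays (0.48 to 0.66), and Upk1b and Upk3b were not well above background in either group.

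For gut, lung and thyroid epithelium, 4 of 9 markers were tested, Nkx2-1 was the 1 that rose in double knockout kidneys, and Cdx2, Sftpc, Sftpb and Tg were not well above background in any group. The summed level was 807 to 1035 in double knockout, 1236 to 1593 in Ezh1-het and 741 to 1330 in control kidneys, and Cdx1 was the 1 that rose in Ezh1-het. Of 7 tested liver markers 0 passed in double knockout with limma, with 1 at an unadjusted p under 0.05, and Apoa1, Apob and Ahsg were not well above background. Their summed level was 2063 to 7696 in double knockout and 1685 to 4774 in control kidneys. In Ezh1-het it was 5260 to 7556 and 1 rose, Ttr. Of gonad markers 1 of 4 tested rose, Foxl2os, with the filter limit given above. Amh, Ddx4, Dazl and Cyp19a1 were not well above background in any group. Of 7 adrenal and 6 neural markers 0 passed in double knockout with limma, with 0 and 1 at an unadjusted p under 0.05. The part that other tissues have in the member values was not tested.

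The kidney's own markers were present, 13 of 14 being well above background on some double knockout and some control array. Cited1, of uninduced nephron progenitors, fell by 0.90 in double knockout, 0.79 in Ezh1-het and 0.69 in Ezh2-KO kidneys (SE 0.13 each, limma adjusted p = 0.000586, 0.00254 and 0.0104). With median centring these differences were -0.31, -0.18 and -0.15 and did not pass. The median of all genes in that setting was 0.38, 0.44 and 0.41. Foxd1 rose in double knockout kidneys as given above, and the other 11 tested did not pass there. In Ezh1-het, where Foxf1 and Foxa2 lay above the controls, the podocyte genes Nphs1 (0.94, SE 0.21, limma adjusted p = 0.0139) and Podxl (0.94, SE 0.20, limma adjusted p = 0.011) rose, as did Chga of the adrenal markers (0.74, SE 0.19, limma adjusted p = 0.0273). Without controls 2 and 3 together they were 0.70, 0.77 and 0.62 and none passed, Nphs1 was also lost without Ezh1-het 4 (0.89), and Chga without any 1 of 6 arrays (0.70 to 0.78). In double knockout kidneys Nphs1, Podxl and Chga differed by 0.14, 0.24 and 0.38 and did not pass. The part of these cells in the Ezh1-het member values was not tested.

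The genes whose pattern over the 16 arrays was most like that of a member were found among 15626 tested and named genes by Pearson's r. For Foxf1 they were Fendrr (0.97), the heart factor Nkx2-5 (0.96), Gm11538 (0.95), the homeobox gene Esx1 (0.95) and Hoxc13 (0.95). Without the double knockout arrays (n = 12) these were 0.70, 0.47, 0.83, 0.65 and 0.66. For Foxa1 they were Esx1 (0.97), Hoxc13 (0.96) and Pax3 (0.95), a factor of neural crest and muscle, with 0.71, 0.52 and 0.19 without the double knockout. For Foxa2 they were Nrn1 (0.96), Gm11538 (0.96) and Ebf3 (0.95), and these stayed at 0.89, 0.83 and 0.90. The likeness to Foxa2 thus did not rest on the double knockout arrays alone. Foxa2 and these genes were also higher than control in Ezh1-het, so the 12 arrays still held a shared genotype difference. All of these points share the Cy3 RNA.

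Of these likewise patterned genes, Nkx2-5 was at least 1.91-fold higher in double knockout than in control kidneys (0.94, SE 0.08), Esx1 at least 1.90-fold (0.92, SE 0.11), Hoxc13 at least 1.73-fold (0.79, SE 0.10) and Pax3 at least 1.72-fold (0.79, SE 0.11). Each of these 4 genes was well above background on 4 arrays, all from the double knockout. That group alone carried them past the filter, which fixed that they would differ there. The choice by likeness to members high in the double knockout also fixed the direction, as it did for Gm11538, Nrn1 and Ebf3. The Ezh1-het differences of Nkx2-5, Esx1, Hoxc13 and Pax3 were 0.09, 0.12, 0.21 and 0.05. Gm11538 (at least 3.20-fold in double knockout), Nrn1 (at least 1.91-fold) and Ebf3 (2.08, SE 0.16) differed from control in Ezh1-het by 0.67, 0.42 and 0.99. Patterns like that of Foxl2 belonged to Yif1b (0.96), Gadd45gip1 (0.95) and AY036118 (0.94), and like that of Foxa3 to Rp2 (0.83), 2500002B13Rik (0.77) and Rpl26 (0.76). These 6 genes were well above background on all 16 arrays.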

How the data were processed

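RNA of 16 kidney samples was read on 2-colour Agilent arrays. Per the file headers, the authors extracted spots with Feature Extraction 10.7.3.1, which gives linear median intensity and background intensity per dye and a processed signal. The deposited value table holds the same arrays' log10 ratio of Cy5 over Cy3, rounded, with a median of 0 in each of 16 columns; it was checked against the scanner files (largest difference 0.005) and not otherwise used.

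From the median intensities, limma 3.58.1 in R 4.3.3 applied normexp background correction (offset 50) and loess within arrays, with control spots weighted 0 and outlier-flagged spots (69 to 343 per array) left out. Spots of a probe were averaged. Accessions were named through RefSeq (GRCm38.p6), which gave a symbol to 32994 of 56605 probes. A probe was kept if at least 4 of the 16 sample-channel signals were well above background (34732 probes), and the brightest represented its gene (15646 genes). One linear model over all 16 arrays gave 4 comparisons, with Benjamini-Hochberg adjustment and a threshold of 0.05. Where a group had no array well above background, folds are the smaller of the Cy5-level bound and the ratio. No spot of the members was saturated. The number of arrays limits the precision. The fit was first tested on simulated data.

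The members and all lists were chosen with earlier results of these data known. Some genes are not reported here and are left out of the lists, their counts and the figures, though not of the fit. Text names all members, their measured neighbours, the listed other forkhead genes past the threshold, up to 4 genes per list and comparison by size of difference, the genes most correlated with each member, and Ezh1 and Ezh2. Gli2, Hhip, Ptch1, Smo, Foxk1, the double knockout value of Ttr, the fifth gene of a list and the markers were named after their values were seen. The alternatives tried were offset 16, processed signals, median centring, Cy5 alone, no filter, the mean of a gene's probes, trended and robust variances, only the 2 groups compared, slide as a block, each slide alone, the replicate number as a block, each array left out, and controls 2 and 3 left out. Coordinates of the array design and probe strands were not used here.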

Additional observations from a re-analysis of the deposited data

Results flagged for a closer look

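Among 28 groups of 4 member values, 2 had an array far from the other 3, where chance alone gives about 1 in 20. Double knockout 1 had a Foxa3 log2 ratio of 0.47, against 0.13, 0.09 and 0.06 on the other double knockout arrays. Double knockout 2 had a Foxl2 log2 ratio of 0.51, against -0.0017, -0.03 and -0.05 on the other double knockout arrays. In each case the gap to the nearest other array, as a share of the range (0.843 and 0.909), exceeded Dixon's critical value for 4 samples.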

How the results depend on the processing

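Counts are given for double knockout, Ezh1-het and Ezh2-KO against control and for double knockout against Ezh2-KO. No called difference of a gene named in the text changed sign in the 29 alternatives. All genes called numbered 723, 1222, 482 and 143. Median centring gave 5364, 8037 and 6839 for the first 3, almost all higher (5191, 7745 and 6668), because it moved the median of all genes. With only the 2 groups compared, 442 genes were called in double knockout against control, 59 in Ezh2-KO against control and 66 in double knockout against Ezh2-KO. Slide 1 alone gave 229, 138 and 162 against control, and slide 2 alone 113, 37, 6 and 13. Without controls 2 and 3 there were 450, 235, 78 and 217. Leaving out each array gave 441 to 922, 487 to 1484, 202 to 515 and 84 to 199. Fewer arrays leave less power, and the cause of the other shifts was not tested.

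Other forkhead genes called numbered 2, 2, 1 and 0. Median centring gave 10, 11 and 6 against control, every one higher, and Cy5 alone 2 higher in Ezh1-het, where the 2 reported were lower. In double knockout against control the count was 1 with no filter and 0 with processed signals, Cy5 alone, only the 2 groups, either slide alone, and without controls 2 and 3. In Ezh1-het it was 1 with only the 2 groups and 0 on either slide alone and without controls 2 and 3. In Ezh2-KO it was 0 with the mean of probes, only the 2 groups, either slide alone and without controls 2 and 3. Leaving out each array gave 0 to 3, 0 to 3, 0 to 2 and 0.

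Of the 5 members above the detection filter, 3, 2, 0 and 3 were past the limma threshold (1 in Ezh2-KO at an unadjusted p under 0.05), where 4.62%, 7.81%, 3.08% and 0.914% of genes were. The members were chosen on these ratios, so nothing is read from the count or from its steadiness. It was 3 in double knockout against control except on slide 2 alone (2) and, at 4 each, with median centring and no filter. In Ezh1-het it was 0 with median centring, Cy5 alone, either slide alone and without controls 2 and 3, was 1 with only the 2 groups and with trended and robust variances, and ranged from 0 to 2 over single arrays left out. Median centring placed 1 member lower in Ezh2-KO, and slide 2 alone kept 1 of 3 members against Ezh2-KO.

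The labels do not say whether samples with the same replicate number were collected together. Of 24 same-numbered pairs, 8 correlated above 0.1 (range -0.48 to 0.51), which does not settle whether they were paired. With the replicate block 740, 1125, 462 and 122 genes were called, and the member and forkhead counts did not move. With slide as a block they were 806, 1390, 608 and 156. Member spots near background limit every fold given for them.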
